A study of Mus musculus with 574 samples.

Results

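The interferon-induced transmembrane (Ifitm) genes were followed in single granulocyte/macrophage progenitors (GMPs) from the bone marrow of mice, which regenerates after 5-fluorouracil (5-FU). The members are 4 of the 46078 genes in the count tables: Ifitm1, Ifitm2, Ifitm3 and Ifitm6. They were chosen by name, because Ifitm1 had risen between day 0 and day 8, so contrasts that use either of these days are given below as values with no test. All mice were C57Bl/6, aged 6 to 12 weeks, and were injected once with 5-FU, at 150 mg/kg, or with phosphate-buffered saline as control. Lin-, c-Kit+, Sca-1-, CD34+, FcγR+ GMPs were sorted 1 to a well, and their full-length cDNA was made by Smart-seq2, which marks neither strand nor molecule. The labels name 1 set of cells each for days 0, 10, 12 and 14, and 2 sets for day 8. The label of the treatment is 5-FU in all 6 sets, day 0 included, and whether the day 0 mice were given saline is not in the labels. Bones were crushed or flushed, and the labels do not assign either way to a set. A cell was used if it held 50000 or more reads in genes and 1000 or more detected genes, which left 500 of 573 cells. Day 0 kept 92 cells, the first day 8 set 90, the second 93, day 10 93, day 12 85 and day 14 47.

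IFITM proteins are small membrane proteins that sit in the plasma membrane and in endosomes, where they hinder the fusion of enveloped viruses with the cell. Interferons induce them through the JAK kinases and STAT and IRF transcription factors, which bind the interferon-stimulated response element and the gamma-activated site in front of responsive genes. IFITM3 is the member best known for restricting influenza virus, IFITM1 lies mainly at the cell surface, and stem and progenitor cells are known to express members of the family without added interferon. 5-FU stops the making of thymidine and so kills cells that replicate DNA, after which GMPs are formed anew from earlier progenitors.

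The 4 members lie on chromosome 7 (mm10, the same build as GRCm38) within 63.1 kb, from base 140954837 to base 141017924. Ifitm1 (ENSMUSG00000025491) is read from the plus strand, and Ifitm2 (ENSMUSG00000060591), Ifitm3 (ENSMUSG00000025492) and Ifitm6 (ENSMUSG00000059108) are read from the minus strand. Their promoters are shown because the levels of the 4 neighbours differ in how they move by day. Each line gives 120 bases before to 30 bases after the RefSeq start (GRCm38.p6), read on the strand of the gene. Capitals mark matches to the core of the interferon-stimulated response element (GAAA, any 2 bases, GAAA) or to the gamma-activated site (TTCNNNGAA, with N for any base). Both strands were searched over 250 bases before to 50 bases after the start.
Ifitm1, chr7:140967956-140968105, plus strand: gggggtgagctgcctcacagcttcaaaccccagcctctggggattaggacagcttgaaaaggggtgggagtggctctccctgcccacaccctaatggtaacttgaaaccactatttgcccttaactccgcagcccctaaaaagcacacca
Ifitm2, chr7:140955932-140956081, minus strand: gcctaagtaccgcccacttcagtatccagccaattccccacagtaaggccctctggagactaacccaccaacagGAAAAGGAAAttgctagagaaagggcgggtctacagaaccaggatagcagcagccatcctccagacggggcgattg
Ifitm3, chr7:141010715-141010864, minus strand: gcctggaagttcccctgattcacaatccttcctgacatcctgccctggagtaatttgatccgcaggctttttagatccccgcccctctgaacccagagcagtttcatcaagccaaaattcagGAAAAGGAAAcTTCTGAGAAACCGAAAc
Ifitm6, chr7:141016863-141017012, minus strand: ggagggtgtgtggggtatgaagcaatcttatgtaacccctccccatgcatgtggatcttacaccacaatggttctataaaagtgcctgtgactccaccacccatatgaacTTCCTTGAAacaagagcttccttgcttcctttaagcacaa
The Ifitm3 stretch holds 2 matches to the response element, and its 1 match to the gamma-activated site overlaps the second of them. Ifitm2 holds 1 match to the response element and Ifitm6 holds 1 match to the gamma-activated site. These letters do not occur in the searched window of Ifitm1. That window is placed on the RefSeq start of Ifitm1 at base 140968076, while the GENCODE gene starts upstream of it, at base 140967221, which the window does not cover. Of 32851 mouse promoters of the same length, 3.44% held the response element core and 8.30% the gamma-activated site. A match is a description of the letters, not of a bound site.

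The members resemble each other in sequence, which bears on how reads were assigned. The coding sequence of Ifitm1 was 81.5% identical to that of Ifitm2, 81.6% to Ifitm3 and 65.4% to Ifitm6 over the aligned bases. Of all stretches of 50 bases in their transcripts, 1.42% in Ifitm1, 3.30% in Ifitm2, 5.56% in Ifitm3 and 0% in Ifitm6 also occurred in another Ifitm gene. Reads from the shared stretches of Ifitm1, Ifitm2 and Ifitm3 cannot be placed with certainty. Gm45717, a read-through gene on the same strand, overlaps Ifitm2 in the annotation and was not used here.

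The sets differ in more than day. The median cell held between 79450 reads in genes (day 14) and 289900 (first day 8 set), and 49 of 96 day 14 cells were left out for low depth. Xist, which is read in female cells, had a read in 88.04% and 88.2% of the cells of days 0 and 12 and in 1.08% to 6.45% of the cells of the other sets. The day 0 and day 12 mice were thus female by their RNA and the others male, so contrasts of days 0 and 12 with days 8, 10 and 14, the rise of Ifitm1 from day 0 to day 8 included, cannot be told apart from sex. Of the genes of the sort gate, Kit had a read in 67.8% to 86.96% of the cells of a set. Cd34 had one in 72.3% to 97.85% and Fcgr3 in 72.04% to 94.6%. Mpo, which is not part of the gate, had a read in 100% of cells in every set. Ly6a, which encodes Sca-1, was at 3.83 to 12.9 CPM (reads scaled to a common depth), with a read in 11.1% to 23.9% of cells. Cd3e, a T cell gene that GMPs lack, had a read in at most 2.15% of the cells of a set. Only day 8 has replicate sets, and no label states that separate mice were used for them. The p-values of contrasts between days therefore rest on how far these 2 sets lie apart, and that spread may be technical. Comparisons between cells of the same set use the set as a block. Their p-values rest on how those differences vary over sets.

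Ifitm1 was the member that moved most with time. After normalisation by the trimmed mean of M-values (TMM), its level was 39.01 CPM on day 0, 436 and 796 CPM in the 2 day 8 sets, 500 CPM on day 10, 36.5 CPM on day 12 and 92.4 CPM on day 14. The 3 sets of days 8 and 10 lay above all others, and days 0 and 12 were the lowest. Day 8 was 15.8-fold above day 0, a log2 fold change of 3.98 ± 0.36 (SE), which is the contrast that led to the choice of the gene. Day 10 against day 8 had a log2 fold change of -0.30 ± 0.29, with no test, and the day 10 level lay between those of the 2 day 8 sets.

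Ifitm1 fell steeply between day 10 and day 12. The level on day 10 was 13.7-fold that on day 12, a log2 fold change of -3.78 ± 0.37 (SE, 95% interval -4.52 to -3.03, adjusted p = 2.3e-10, edgeR's quasi-likelihood test over 15145 genes, 1 set each). In that contrast 32 genes, or 0.211% of those tested, were called higher on day 12 and 51, or 0.337%, lower, 0.548% in all. It compares male with female sets. Within the sets without Xist, Ifitm1 fell by 2.44 ± 0.35 on the log2 scale from day 10 to day 14 (adjusted p = 2.2e-06, edgeR). The background there was larger, with 3.41% of genes called higher and 2.41% lower on day 14, 5.82% in all. Within the sets with Xist, day 12 differed from day 0 by a log2 fold change of -0.10 ± 0.34.

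From day 12 to day 14 Ifitm1 rose by a log2 fold change of 1.34 ± 0.35 (adjusted p = 0.0187, edgeR), where 1.97% of genes were called higher, 1.25% lower and 3.23% in all. In order of level, days 12 and 0 were lowest, with a difference below its SE, day 14 followed, and days 10 and 8 were highest, with day 10 between the 2 day 8 sets. These calls depend on the test. With cells thinned to equal depth, edgeR called 0 genes in each of the 3 contrasts (526, 1690 and 1398 genes at an unadjusted p under 0.05 for day 12 against 10, day 14 against 10 and day 14 against 12) and the adjusted p of Ifitm1 was 0.938, 0.284 and 0.435, at log2 fold changes of -3.77, -2.45 and 1.32. Without thinning, the DESeq2 test called 31, 351 and 146 genes, and of Ifitm1 only the fall from day 10 to day 12. In thinned cells DESeq2 missed the threshold for Ifitm1 in all 3 contrasts. In cells with at least 200000 reads the rise to day 14 was not seen (log2 fold change -0.19), with 4 such cells on day 14.

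Single cells showed the same order as the sums. Every cell was thinned at random to 50000 reads, at which 1 read is 20 CPM. An Ifitm1 read was found in 36 of 92 cells on day 0 (39.1%, exact 95% binomial interval 29.1% to 49.9%), and in 83 of 90 (92.2%) and 93 of 93 (100%) cells of the day 8 sets. On day 10 the share was 96.8% (90 of 93), on day 12 36.5% (31 of 85, interval 26.3% to 47.6%) and on day 14 63.8% (30 of 47, interval 48.5% to 77.3%). The intervals cover counting error only, and without thinning the shares were 48.9%, 98.9%, 100%, 97.8%, 44.7% and 65.96%. The median cell held 0 CPM on days 0 and 12, 320 and 760 CPM in the day 8 sets, 320 CPM on day 10 and 20 CPM on day 14. The lowest cell of the second day 8 set had 20 CPM, and the highest cell of all, on day 10, had 5160 CPM. On days 0 and 12 a single cell carried 36.8% and 31.1% of all Ifitm1 reads of its set. Without that cell the thinned mean went from 47.8 to 30.5 CPM on day 0 and from 34.8 to 24.3 CPM on day 12, while in the day 8 sets leaving out the highest cell moved 507 to 487 CPM and 961 to 938 CPM.

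**Figure D1:**
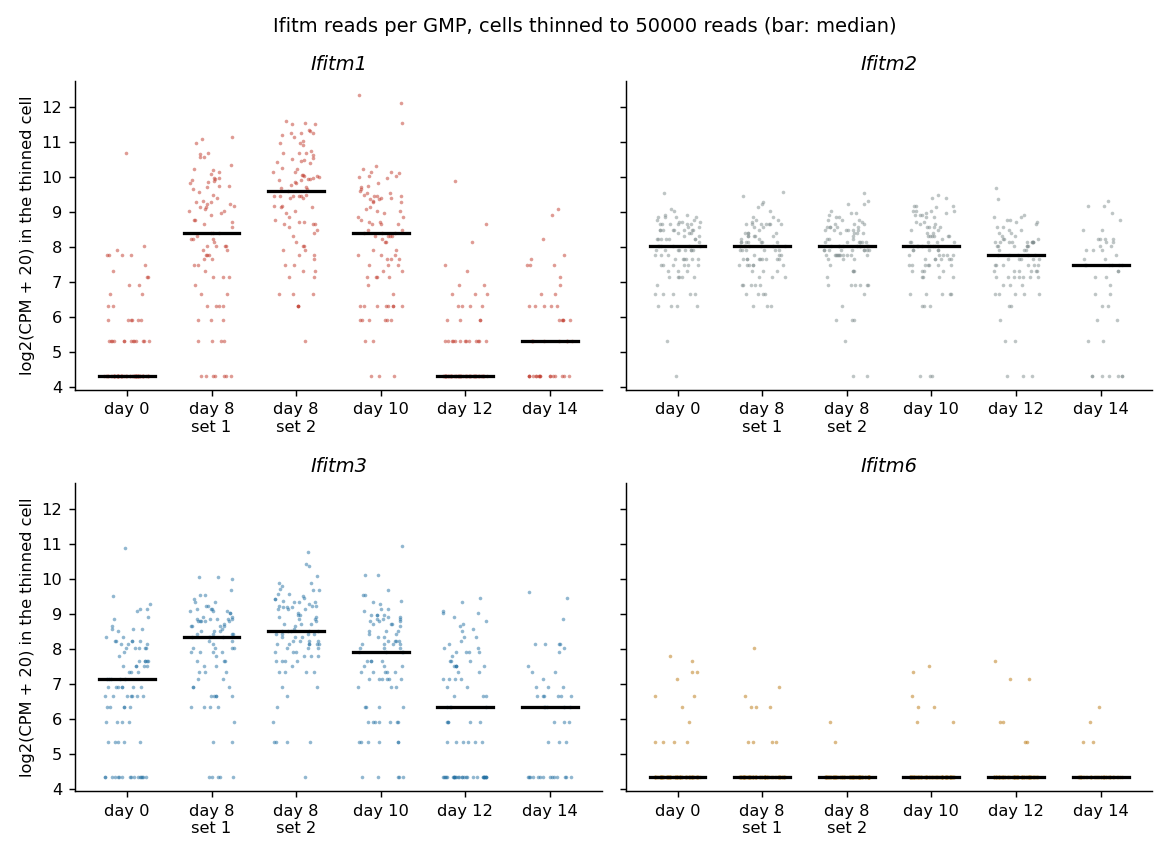
Level of each Ifitm gene in every used cell (points), thinned to 50000 reads, as log2(CPM + 20) by set, with the set's median as a bar. Ifitm1 lies at 0 CPM in most cells of days 0 and 12 and has medians of 320 and 760 CPM on day 8. Ifitm2 is read in 85.1% (day 14) to 100% (first day 8 set) of cells.

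Ifitm3, the member best known for restricting influenza virus, followed Ifitm1 over a smaller range. Its TMM-scaled level was 175 CPM on day 0, 280 and 356 CPM on day 8, 302 CPM on day 10, 134 CPM on day 12 and 152 CPM on day 14. Again the 3 sets of days 8 and 10 were highest. For neither Ifitm1 nor Ifitm3 was the share of all genes with this order of sets computed. Day 8 exceeded day 0 by a log2 fold change of 0.86 ± 0.28 (SE), given with no test. From day 10 to day 12 the log2 fold change was -1.17 ± 0.31, which missed the threshold of 0.05 (adjusted p = 0.0659, edgeR). Between the male sets of days 10 and 14 Ifitm3 fell by 0.99 ± 0.31 on the log2 scale (adjusted p = 0.0467, edgeR), a call just past the threshold. The call was lost at folds about as large with DESeq2 (-0.97, adjusted p = 0.0775), limma voom (-0.99, adjusted p = 0.15), DESeq2 size factors in edgeR (-0.97, adjusted p = 0.0575), without Slc34a2 (-0.99, adjusted p = 0.055, edgeR) and in thinned cells (-0.86, adjusted p = 0.346, edgeR). Without a cell filter the fall from day 10 to day 12 was called (adjusted p = 0.0377, edgeR). Its share of cells with a read went from 82.6% on day 0 to 94.4% and 98.9% on day 8 and 94.6% on day 10, then to 65.9% on day 12 and 70.2% on day 14.

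Ifitm2 varied least between sets in TMM-scaled levels. Its level was 247 CPM on day 0, 239 and 251 CPM on day 8, 256 CPM on day 10, 223 CPM on day 12 and 254 CPM on day 14. The log2 fold changes were -0.20 ± 0.30 for day 12 against day 10, -0.01 ± 0.31 for day 14 against day 10 and 0.19 ± 0.31 for day 14 against day 12, none of them called. Their 95% intervals reached from -0.81 for day 12 against day 10 to 0.81 for day 14 against day 12, so smaller changes cannot be told from none. Day 12 was the lowest on this scale. In thinned cells without TMM scaling the means were 256 CPM on day 0, 256 and 262 CPM in the 2 day 8 sets, 271 CPM on day 10, 217 CPM on day 12 and 184 CPM on day 14, the lowest there. A read was found in 85.1% (day 14) to 100% (first day 8 set) of cells. Across cells of a set the standard deviation was 0.512 to 0.853 times the mean for Ifitm2, against 0.832 to 3.67 times for Ifitm1.

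Ifitm6, a family member known from myeloid cells, was scarce. It stood at 8.21 CPM on day 0, 5.03 and 1.12 CPM in the 2 day 8 sets, 4.70 CPM on day 10, 4.94 CPM on day 12 and 2.24 CPM on day 14, from between 9 and 165 reads per set. The day 8 sets differed more from each other than days 10 and 12 did, and none of the 3 tested contrasts was called, with SEs between 0.81 and 0.94 on the log2 scale. Its share of cells with a read was 14.1% on day 0, 11.1% and 2.15% in the 2 day 8 sets, and 7.53%, 8.24% and 8.51% on days 10, 12 and 14.

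Per kilobase of exon the genes can be compared with each other. On day 0 Ifitm2 (377 CPM per kb) and Ifitm3 (258 CPM per kb) were the main members, and Ifitm1 (35.7 CPM per kb) and Ifitm6 (9.07 CPM per kb) were minor. In the second day 8 set Ifitm1 (728 CPM per kb) passed both Ifitm3 (524 CPM per kb) and Ifitm2 (383 CPM per kb). The first day 8 set held Ifitm1, Ifitm2 and Ifitm3 at 398, 365 and 414 CPM per kb, and day 10 at 457, 390 and 445 CPM per kb. In thinned cells Ifitm1 made up 6.15% of the per-length sum of the 4 genes on day 0, 34.6% and 46.3% in the 2 day 8 sets, and 36.04%, 5.68% and 12.1% on days 10, 12 and 14. That sum was 711 CPM per kb on day 0, 1338 and 1897 in the 2 day 8 sets, and 1312, 560 and 509 on days 10, 12 and 14.

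**Figure D2:**
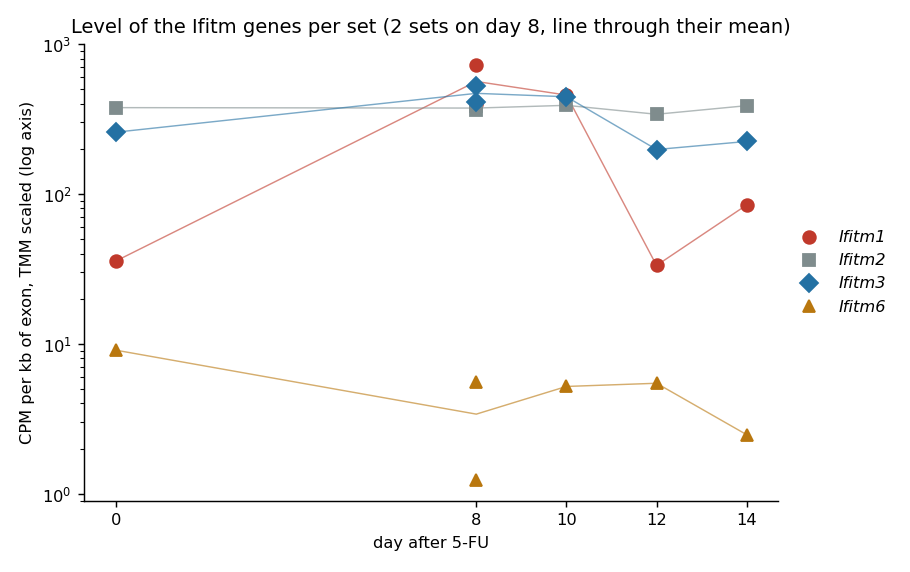
TMM-scaled level per kilobase of exon (log axis) of the 4 Ifitm genes in each of the 6 sets, by day after 5-FU, with a line through the mean of the 2 day 8 sets. Ifitm2 runs between 340 and 390 CPM per kb, and Ifitm1 goes from 35.7 on day 0 to 398 and 728 on day 8 and back to 33.3 on day 12.

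The other mouse Ifitm genes in the tables did not share this course. Ifitm7, a copy on chromosome 16 whose coding sequence was 89.3% identical to that of Ifitm1, had 12.4 CPM on day 0, 3.69 and 3.67 CPM on day 8, 3.19 CPM on day 10, 6.91 CPM on day 12 and 10.7 CPM on day 14, and was lowest where Ifitm1 was highest. Ifitm10 stood at 2.71 to 8.33 CPM. Of the 2 genes, 0 were called in any of the 3 tested contrasts, in which 0.548% to 5.82% of all genes were called. Ifitm5, known from bone-forming cells, had no read in 4 sets and 25 and 33 reads in the first day 8 set and on day 10. A count of 0 among the 92 cells of day 0 allows a share of up to 3.26% of cells with a read at this depth, which does not limit the share that expresses the gene.

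Neighbours of the cluster were looked at in the same way. The annotation lists 15 other protein-coding genes within 100 kb of the 4 members, of which 13 are in the tables and 8 were tested. None was called: 0 of 8 in each of the 3 contrasts. Of all genes 0.548% were called for day 12 against 10, 5.82% for day 14 against 10 and 3.23% for day 14 against 12. A count of 0 among 8 genes is near these shares. For day 12 against day 10 their log2 fold changes ran from -0.72 (Sigirr, a receptor that dampens Toll-like receptor signals) to 0.41 (Ric8a, a chaperone of G proteins), beside -3.78 for Ifitm1 and -1.17 for Ifitm3. Psmd13, a proteasome subunit, had -0.30 ± 0.30, and Sirt3, a mitochondrial deacetylase, had -0.12 ± 0.32. For day 14 against day 10 they had -0.62 ± 0.31 and -0.61 ± 0.33, not called, and for day 8 against day 0 0.51 ± 0.27 and 0.66 ± 0.28, not tested. B4galnt4 stood at 1.83 CPM on day 10 and is listed at 0 on days 0 and 14.

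**Figure D3:**
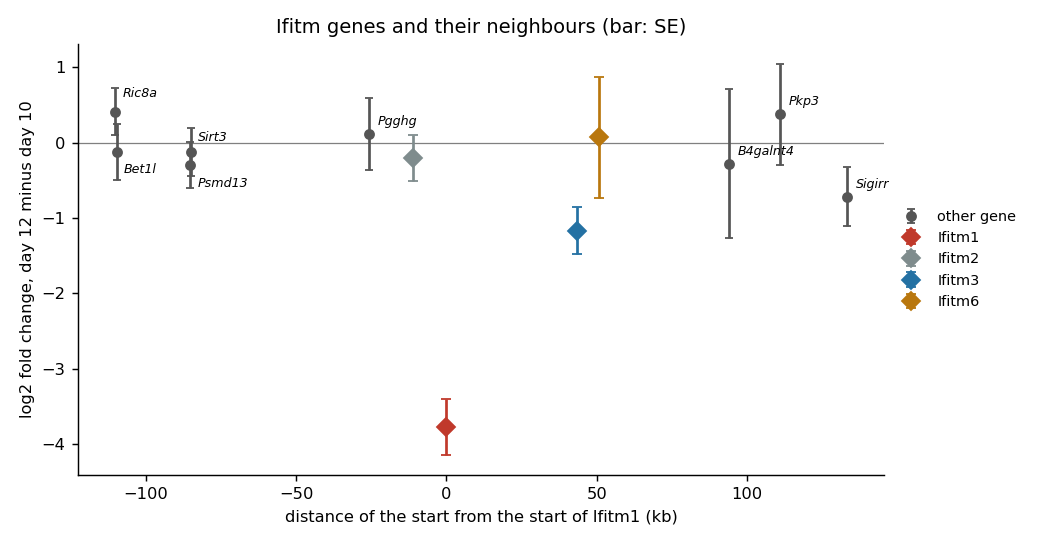
Log2 fold change of day 12 against day 10 with its SE for the 4 Ifitm genes (diamonds) and the 8 tested neighbours (circles), by distance of the start from that of Ifitm1 in kb. Ifitm1 at -3.78 and Ifitm3 at -1.17 lie below the neighbours, which span -0.72 to 0.41.

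The cells that carried Ifitm1 were compared with the other cells of the same set. The split used at least 1 read among the 50000 of a thinned cell, and counts were summed per set and group. Both groups held at least 5 cells in 4 sets: 36 and 56 cells with and without a read on day 0, 83 and 7 in the first day 8 set, 31 and 54 on day 12, and 30 and 17 on day 14. The second day 8 set and day 10, with 0 and 3 cells without a read, could not enter. Ifitm1 itself was left out of the test. On day 14 the cells differed in quality as well: carriers and other cells had medians of 92080 and 76240 reads, 4756 and 4110 genes per thinned cell and gene to spike-in ratios of 47.7 and 29.8, and 93.3% and 70.6% held an Ifitm2 read. The antigen presentation genes there summed to 6695 CPM in carriers and 4042 CPM in the others. The part of these differences in the result was not tested. Of 9396 genes, 8 (0.0851%) were called higher in carriers and 6 (0.0639%) lower, 0.149% in all.

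Ifitm3 was the family member called higher in carriers. Its mean was 254 CPM with and 129 CPM without an Ifitm1 read on day 0, 339 and 114 CPM in the first day 8 set, 203 and 86.7 CPM on day 12, and 159 and 25.9 CPM on day 14. Carriers were higher in 4 of 4 sets, with a log2 fold change of 1.37 ± 0.20 (SE, 95% interval 0.94 to 1.79, adjusted p = 0.0159, edgeR with the set as a block). Ifitm2 had 0.12 ± 0.15 (interval -0.21 to 0.44) and was not called. Ifitm6 had -0.72 ± 0.90 and was not called. In the first day 8 set it was read in 5 of the 7 cells without an Ifitm1 read, at 65.7 CPM, and in 5 of the 83 carriers, at 2.65 CPM. In the other sets of the fit it was at 12.8 and 11.8 CPM (day 0), 10.3 and 4.07 CPM (day 12) and 3.33 and 2.35 CPM (day 14), and thus did not go that way.

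Among the other genes called higher in carriers, Adgrg1, an adhesion receptor of stem and progenitor cells, had a log2 fold change of 1.84 ± 0.31, with 224 against 87.1 CPM on day 0, 379 against 31.4 CPM on day 8, 168 against 77.04 CPM on day 12 and 84 against 10.6 CPM on day 14. Apoe, a lipoprotein, had 3.42 ± 0.33, Mcpt8, a basophil protease, 2.06 ± 0.32, and Dapp1, a signalling adaptor, 1.13 ± 0.19. Of the 26 genes listed for stem and multipotent cells 18 were tested, where 0.0851% of all genes were called higher. Of the 18, 3 were called higher: Adgrg1, Gata2 (3.15 ± 0.43) and Angpt1 (2.75 ± 0.47). All 18 had positive values, with a median log2 fold change of 0.90 against 0.00 over all genes tested, and Cd34, a surface marker of progenitors, had 0.89 ± 0.16 (adjusted p = 0.0580, edgeR). The 6 genes called lower were the neutrophil proteases Elane (-0.89 ± 0.12) and Prtn3 (-0.62 ± 0.11), the glutathione transferase Gstm1 (-0.98 ± 0.14), the myeloid receptor Trem3 (-1.12 ± 0.17), the sphingomyelin synthase Sgms2 (-1.77 ± 0.29) and Tmsb4x, an actin-binding peptide (-0.76 ± 0.13). Elane stood at 13309 CPM in carriers against 18867 CPM in other cells on day 0, 2291 against 5551 CPM in the first day 8 set, 9829 against 16630 CPM on day 12 and 12200 against 16199 CPM on day 14. Of 11 genes listed for granulocyte priming, 3 were called lower and 10 had negative values, where 0.0639% of all genes were called lower.

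Markers of basophils and mast cells moved with the carriers. Their 8 listed genes summed to 329 to 809 CPM in carriers and 111 to 232 CPM in the other cells of the 4 sets. Of these genes 4 were tested and 3 were called higher, where 0.0851% of all genes were called higher. The 3 were Cpa3, a mast cell carboxypeptidase (3.59 ± 0.28), Mcpt8 and Gata2, which is also in the list of stem and multipotent genes. Other lineage markers moved with the split as well, and their part in the result was not tested. The 8 late neutrophil genes summed to less in carriers in each of the 4 sets. They stood at 92.2 against 163 CPM on day 0 and 25.2 against 560 CPM on day 12. The 6 megakaryocyte genes summed to more in each of the 4 sets, with 24.6 against 0 CPM in the first day 8 set. The 4 eosinophil genes summed to 2193 against 32.5 CPM on day 0 and 21.3 against 29.4 CPM on day 14. The 7 erythroid genes summed to 180 against 0 CPM in the first day 8 set and 6 against 9.41 CPM on day 14. The mast cell proteases Cma1 and Tpsb2 were at 0 in 4 and 6 of the 6 sets. At least 5 Cpa3 reads were found in 63 of the 500 cells, of which 55 carried Ifitm1. Without these cells 0 of 8808 genes were called by edgeR (504 at an unadjusted p under 0.05), and Ifitm3 had a log2 fold change of 1.49 with an adjusted p of 0.0535. That setting was chosen after seeing the data. Leaving out day 12 left 2 calls, with an adjusted p of 0.101 for Ifitm3, leaving out day 0 left 8, and another random thinning gave 42.

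**Figure D4:**
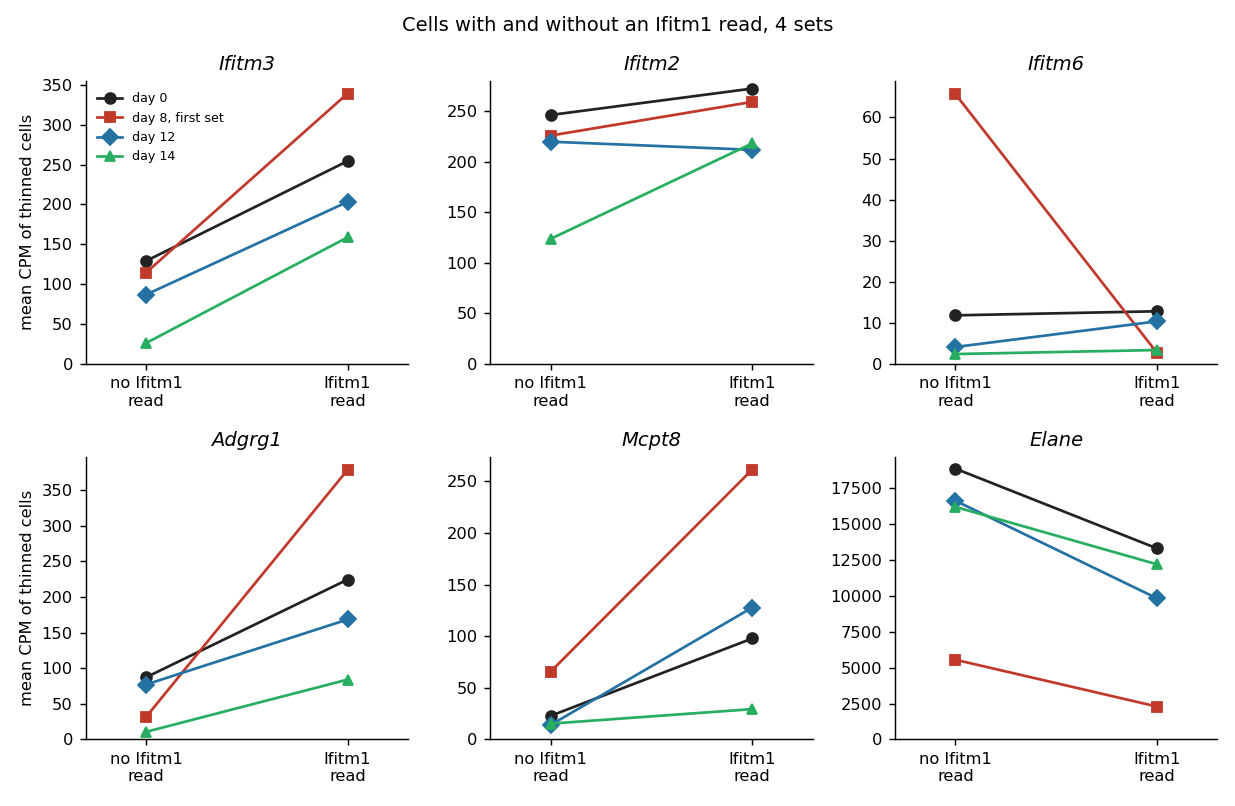
Mean CPM of thinned cells without and with an Ifitm1 read in each of the 4 sets of the fit (lines join the 2 groups of a set) for Ifitm3, Ifitm2, Ifitm6, Adgrg1, Mcpt8 and Elane. Ifitm3, Adgrg1 and Mcpt8 are higher and Elane is lower in the cells with a read in all 4 sets, and Ifitm6 stands out in the 7 cells without a read of the first day 8 set, at 65.7 CPM.

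To let all 6 sets enter, cells were also divided at their set's median of Ifitm1, a split added after seeing the data. On days 0 and 12 the median is 0, so there it is the same split as before. Of 10183 genes, 15 (0.147%) were called higher and 43 (0.422%) lower in the cells above the median, 0.57% in all, and 9 genes were called under both splits. Ifitm3 was higher in 6 of 6 sets (log2 fold change 0.98 ± 0.12, adjusted p = 0.00052, edgeR), with 409 against 239 CPM and 510 against 329 CPM in the day 8 sets and 395 against 179 CPM on day 10. Ifitm2 (0.15 ± 0.09) and Ifitm6 (-0.26 ± 0.53) were not called. Cd34 was higher in 6 of 6 sets, with 780 against 422 CPM and 613 against 479 CPM on day 8 (0.76 ± 0.10, adjusted p = 0.0011). Adgrg1 (0.97 ± 0.10) and Cd27, a receptor of early progenitors (0.58 ± 0.10), were higher as well, while Gata2 (0.97 ± 0.47) and Cpa3 (1.13 ± 0.70) were not called. Of the 8 basophil and mast cell genes 5 were tested, all 5 with positive values (median 1.09) and 0 called. Their summed level was higher above the median on day 0 (809 against 232 CPM), in the second day 8 set (701 against 374 CPM), on day 10 (740 against 261 CPM) and on day 12 (715 against 180 CPM). It was lower in the first day 8 set (370 against 1053 CPM) and on day 14 (195 against 301 CPM).

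The genes called lower in cells above the median again included granule genes. Of 11 genes for granulocyte priming 5 were called lower and 9 had negative values, where 0.422% of all genes were called lower. Elane was called (-0.95 ± 0.11), and stood at 1254 against 3779 CPM and 1757 against 4060 CPM in the day 8 sets. Ctsg, the protease cathepsin G, was called as well (-0.58 ± 0.07). Mpo was not called (-0.30 ± 0.08, lower in 4 of 6 sets). S100a8, a calcium-binding protein of maturing neutrophils, was at 2.73 against 73.04 CPM and 4.35 against 687 CPM on day 8 and lower in 6 of 6 sets (-4.53 ± 0.61). Fcgr3, part of the sorting gate, had -0.74 ± 0.14 and was lower in 5 of 6 sets. Of 14 genes of the monocyte list 13 were tested and 0 were called, with a median of -0.58 and 12 negative values. Over all genes 0.57% were called, and a count of 0 among 13 genes is near that share. The 14 genes summed to more above the median on day 14 (6792 against 3732 CPM) and to less in the other sets. Without the cells with at least 5 Cpa3 reads, 48 genes were called in this split, and leaving out a set in turn gave 30 (without day 12) to 78 (without day 14) calls, with 32 without the second day 8 set and 38 without day 10.

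Across the cells of a set, Ifitm1 and Ifitm3 had the highest mean Spearman correlation among the 6 pairs of members. It averaged 0.41 over the 6 sets, from 0.24 on day 0 to 0.56 on day 10. Ifitm2 and Ifitm3 had the higher value on day 0 (0.29) and on day 14 (0.57 against 0.52). For Ifitm1 and Ifitm2 the mean was 0.21, for Ifitm2 and Ifitm3 0.27, and for Ifitm1 and Ifitm6 0.00. These are descriptions over cells within a set, which are not replicates, in sparse counts. Of the 31 carriers of day 12, 25 also held an Ifitm3 read, and of the 54 other cells 31 did. On day 14 these numbers were 25 of 30 and 8 of 17.

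The genes whose cell-to-cell pattern was most like that of each member were ranked by the same mean correlation among 8929 genes. Cd34 ranked first for both Ifitm1 (0.43) and Ifitm3 (0.42). Ifitm1 was next most like Ifitm3, Tmem176b, a membrane protein of myeloid cells (0.40), Adgrg1 (0.33) and the tetraspanin Tspan13 (0.33). Ifitm3 was followed by the histone gene H2afy (0.41), Ifitm1, the adhesion protein gene Emb (0.40) and the immunoproteasome subunit Psmb8 (0.39). Ifitm2 was most like Rpl14-ps1 (0.34), Atp5j (0.34), and the ribosomal protein genes Rps19 (0.33) and Rpl22 (0.32). Ifitm6 was most like Irf8, the transcription factor of monocyte and dendritic cell fate (0.30), Txndc5 (0.27), the protease Ctss (0.27), Csf1r, the receptor for the growth factor M-CSF (0.27), and Ighm (0.25). The lists of Ifitm1 and Ifitm3 share Cd34 and each other, and the genes named for the other 2 members are not among them.

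The interferon pathway was read beside the family, from the ligand down. Of 8 interferon genes, 0 passed the filter for the test, and at least 7 had no read in each set. Of 8 receptor subunits and kinases, 8 were tested and 0 were called in any of the 3 contrasts. Over all genes 0.548%, 5.82% and 3.23% were called for day 12 against 10, day 14 against 10 and day 14 against 12. In that order the medians of the 8 genes were 0.08, -0.34 and -0.30 (all genes 0.00, -0.06 and -0.04). Ifngr1, a chain of the interferon gamma receptor, was at 655 CPM on day 0, 385 and 368 CPM in the 2 day 8 sets, 764 CPM on day 10, 634 CPM on day 12 and 508 CPM on day 14. It was lowest in the day 8 sets and highest on day 10, and Ifitm1 was high in each of these sets. Ifnar1, a chain of the receptor of type I interferons, stayed between 23.7 and 36.2 CPM. In the split at the median, Ifngr1 was the receptor gene called lower in cells with more Ifitm1 (-0.46 ± 0.09, adjusted p = 0.0163, edgeR, lower in 5 of 6 sets), with 283 against 477 CPM and 358 against 486 CPM on day 8.

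Of 9 transcription factors of the pathway, Stat3 alone was called, lower on day 14 than on day 10 (-1.10 ± 0.32, adjusted p = 0.0305, edgeR), where 2.41% of all genes were called lower and 5.82% either way. Irf7, which drives the interferon response, was low throughout, from 1.45 CPM on day 12 to 8.50 CPM on day 10.

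Of the 36 listed interferon response genes 26 were tested. From day 10 to day 12, 1 was called lower and 0 higher, where 0.337% of all genes were called lower, with a median of -0.12. The called gene was Rtp4, a receptor chaperone, which stood at 6.23 CPM on day 0, 4.54 and 8.68 CPM in the 2 day 8 sets, 8.22 CPM on day 10 and 0.23 CPM on day 12, with no read on day 14. From day 10 to day 14, 5 of 26 were called lower and 1 higher, where 2.41% of all genes were called lower and 3.41% higher, with a median of -0.63, or -0.51 with the 3 genes without a read on day 14 set to 3 reads. Usp18, a brake on interferon signals, went from 13.5 to 0.996 CPM, Oasl1 from 11.8 to 0.50 CPM, Xaf1 from 6.602 to 0.25 CPM and Eif2ak2, a kinase that senses double-stranded RNA, from 12.95 to 2.74 CPM, while Ifi209 went from 25.6 to 123 CPM. Day 14 was the shallowest set, with 4849678 reads in genes over its 47 cells, so its lowest levels here rest on few reads. From day 12 to day 14 Ifi204 was called lower, as were 1.25% of all genes, with no read on day 14. From day 0 to day 8, 20 of the 26 had negative values, with a median of -0.46 beside 0.01 over all genes. Between day 8 and day 10, 24 of 26 had positive values, with a median of 0.43 beside -0.02 over all genes. Neither contrast was tested.

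Cxcl10, a chemokine gene induced by interferon gamma, stood apart in the list of 14 interferon gamma response genes. Its level was 23.9 CPM on day 0, 11.9 and 5.26 CPM on day 8, 152 CPM on day 10, 5.29 CPM on day 12 and 5.98 CPM on day 14. Only day 10 was high. It was the 1 of 11 tested genes called in this list for day 12 against day 10 (-4.84 ± 0.46, adjusted p = 6.3e-11, edgeR) and for day 14 against day 10 (-4.67 ± 0.49). In these contrasts 0.337% and 2.41% of all genes were called lower. Of the 12 antigen presentation genes 12 were tested and 0 were called in the 3 contrasts. The shares over all genes were 0.548% for day 12 against 10, 5.82% for day 14 against 10 and 3.23% for day 14 against 12. B2m, the light chain of class I molecules, was at 4350 CPM on day 0, 1569 and 2238 CPM in the 2 day 8 sets, 2625 CPM on day 10, 3473 CPM on day 12 and 4225 CPM on day 14, below its day 0 level in both day 8 sets. Psmb8, among the genes most like Ifitm3 across cells, stayed between 389 and 472 CPM over the 6 sets.

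**Figure D5:**
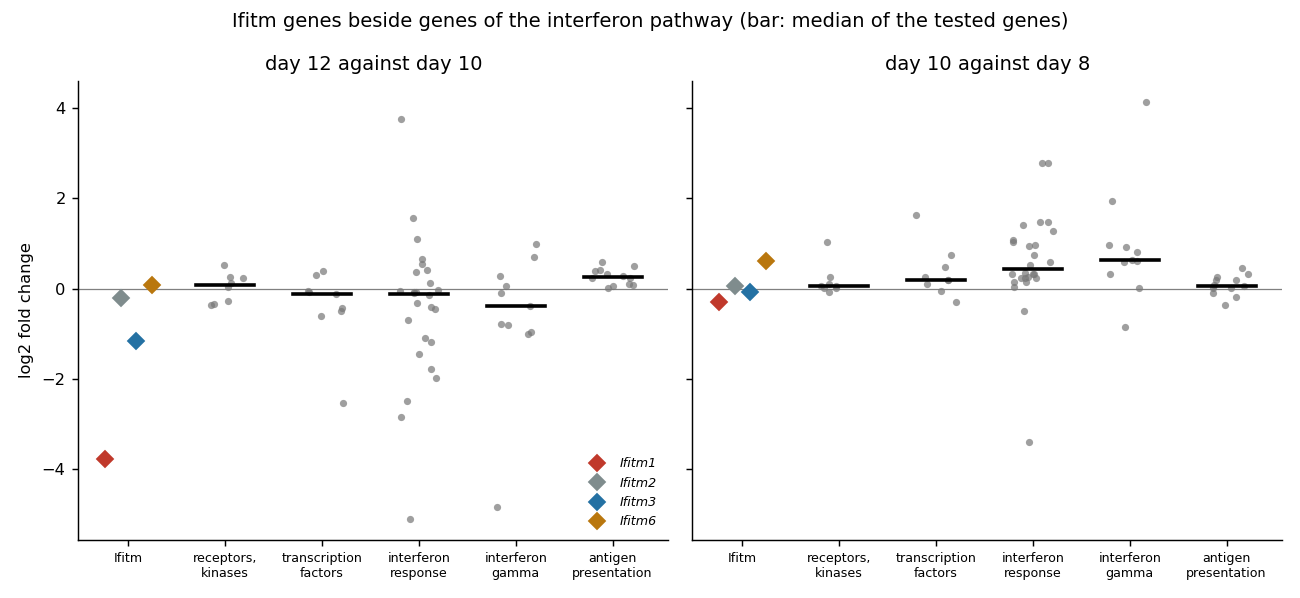
Log2 fold changes of the 4 Ifitm genes (diamonds) and of the tested genes of 5 interferon pathway lists (points, with the list's median as a bar) for day 12 against day 10, left, and day 10 against day 8, right, which was not tested. On the left Ifitm1 lies at -3.78 while the list medians lie between -0.38 and 0.26, and on the right the interferon response list has a median of 0.43 while Ifitm1 is at -0.30.

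The same cells differed in lineage markers, whose part in the Ifitm values was not tested. In CPM without TMM scaling, the 26 stem and multipotent genes summed to 1326 CPM on day 0, 2214 and 2364 CPM on day 8, 1595 CPM on day 10, 1553 CPM on day 12 and 1096 CPM on day 14. The 14 monocyte genes summed to 7414, 1858, 884, 2511, 5965 and 6071 CPM in the same order. In the first day 8 set the monocyte genes summed to 1154 CPM in carriers of Ifitm1 and 7694 CPM in the 7 other cells, beside 5379 and 7939 CPM on day 0, 5045 and 6436 CPM on day 12, and 5645 and 4315 CPM on day 14. Malat1, a transcript that stays in the nucleus, was at 449 CPM on day 0, 171 and 258 CPM in the 2 day 8 sets, 198 CPM on day 10, 308 CPM on day 12 and 361 CPM on day 14, and was thus lowest in the sets with the most Ifitm1.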

How the data were processed

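For every cell the authors deposited read counts as whole numbers, with GSNAP, HTSeq 0.5.3p3 and the mm10 build named in the submitters' processing notes. Beside 46078 genes the tables list 92 spike-ins and 5 entries without a gene. Those 5 took 91.1% of the reads of the median cell, and both kinds were left out of totals and tests. A column that matched no label was not used (1 in all). PCR copies are counted as reads, so intervals cover counting error only. Symbols and exon lengths came from GENCODE vM21, and promoters from RefSeq.

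Counts of kept cells were summed per set and fitted with a mean per day in edgeR 4.0.16 (R 4.3.3) with TMM factors and the quasi-likelihood test, adjusted by Benjamini-Hochberg over all genes, at a threshold of 0.05. The fit had 1 residual and 50.9 prior degrees of freedom, so the spread of the 2 day 8 sets stands for that of the days with 1 set. Tested genes passed filterByExpr and were detected in 10% or more of the cells of some set. For the carrier comparison each cell was thinned to 50000 reads and the set was a block. Genes named there were those called with a read in at least 20% of the cells of 3 sets, at least 32 CPM in either group and the same direction in every set, up to 10 each way. Others were named as members of a list or as the 5 genes most like a member. Values of some of these genes are not reported here. The levels are CPM, and fold changes are from the fit. A gene set was described by counts and medians alone. The members and gene lists were chosen with earlier results of these data known. Alternatives used DESeq2 1.42.0 and limma voom 3.58.1, other filters of cells and genes, other thinning, and single sets left out. Tests were tried on simulated counts. Python 3.11.15 was used with biopython 1.88, matplotlib 3.10.9, scipy 1.17.1, pandas 2.3.3 and numpy 2.4.6.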

Additional observations from a re-analysis of the deposited data

Results flagged for a closer look

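The 73 cells left out for low depth held Ifitm reads that no comparison used: 450 reads of Ifitm1, 274 of Ifitm2, 157 of Ifitm3 and 10 of Ifitm6, above the 3 reads that a count of 0 allows. Of the Ifitm1 reads, 188 came from 3 cells of day 10 and 52 from 49 cells of day 14, where 13 cells held a read. Summed over the cells left out, Ifitm1 was at 80.6 CPM on day 0, 401 and 728 CPM in the day 8 sets, 1447 CPM on day 10, 160 CPM on day 12 and 34.3 CPM on day 14. The values of day 0, day 12 and the second day 8 set each rest on 1 cell with a read.

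Ifitm2 was higher in the cells above the median of Ifitm1 in both day 8 sets, by 0.29 and 0.12 on the log2 scale with 1 CPM added, and lower on day 12, with a log2 ratio of -0.053 (212 against 220 CPM). The difference between the days was not tested.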

How the results depend on the processing

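The 3 tested contrasts of Ifitm1 kept their direction under each alternative run, except day 14 against day 12 in deeper cells (200000 or more reads, 2000 or more genes; -0.19, 4 cells on day 14). In thinned cells the log2 fold change of Ifitm1 missed the threshold for day 12 against 10 (edgeR -3.77, voom -3.77, DESeq2 -3.77), day 14 against 10 (-2.45, -2.45, -2.42) and day 14 against 12 (1.32, 1.32, 1.36). DESeq2 without thinning missed it for day 14 against 10 (-2.42) and day 14 against 12 (1.35), and voom for the latter (1.34). Thinned cells with voom or DESeq2 were added after seeing the data.

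Genes called for day 12 against 10, 14 against 10 and 14 against 12 numbered 83, 882 and 489 as reported. They were 0, 0 and 0 in thinned cells with edgeR and with voom (526, 1690 and 1398, and 425, 1111 and 831, at an unadjusted p under 0.05) and 6, 74 and 44 there with DESeq2. DESeq2 on all reads called 31, 351 and 146, and cells with at least 200000 reads gave 31, 1870 and 1844. Voom called 422 and 197 and no cell filter 1723 and 974 in the last 2 contrasts, and no gene filter 145 in the first. Leaving out a day 8 set leaves no residual degrees of freedom, so values alone were compared: they moved by less than the SE for Ifitm1, from -3.78 to -3.77 for day 12 against 10. The causes were not tested.

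The 14 calls between cells with and without an Ifitm1 read became 27 at 5 or more reads, 0 without thinning (3 sets, 707 at an unadjusted p under 0.05), 42 with another seed, 43 with DESeq2, 31 with voom, 78 without the gene filter, 4 in cells with at least 200000 reads, 0 without cells with 5 or more Cpa3 reads, 58 with the split at the median and 2 to 11 with a set left out. Ifitm3 missed the threshold without thinning (1.35), in the deeper cells (1.23), without the Cpa3 cells (1.49), and without day 12 (1.49, range 1.17 to 1.54 with a set left out). With the split at the median, leaving out a set gave 30 to 78 calls (32 without the second day 8 set, 38 without day 10). Of 96 shares of cells recomputed, 67 stayed within their interval, and 23 of the 29 others came from asking for 5 reads. The contrasts between days were not paired, because only day 8 has replicate sets. The comparisons between cells of the same set were paired, with the set as a block. Depth limits Ifitm6 most, with 9 to 165 reads per set.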
